A study of Mus musculus with 60 samples.

Results

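Ribosome biogenesis factors are the proteins that make, fold, cut and modify ribosomal RNA and assemble it into subunits. A list of 43 of their genes was described here across intestinal epithelial cells of Lgr5-2A-eGFP mice. Members were taken as every gene of the deposited count table whose symbol is on the list, and all 43 were found among 55357 genes. Each mouse was 8 weeks old and carried the Lgr5-2A-eGFP allele, in which the gene of the R-spondin receptor that marks crypt base stem cells also makes a green fluorescent protein (GFP); the labels used here give no strain or sex and name no untreated or allele-free control. The small intestine was cut into 3 equal parts (proximal, middle, distal) and the colon into 2 (proximal, distal), crypts were released with a chelating buffer and dissociated with the enzyme TrypLE, and single cells were then separated by GFP brightness into a high, an intermediate and a negative fraction. At least 50000 cells were sorted for each small intestinal library and at least 30000 for each colon library. A part and a fraction together make 1 of 15 groups, each with 4 libraries of poly(A) RNA, named below by the number 1 to 4 in their titles. Nothing in the labels says that these came from separate animals, so p-values measure the spread between these libraries.

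Ribosomes are built mostly in the nucleolus. RNA polymerase I transcribes one long precursor, which the small subunit processome folds and cleaves while box C/D and box H/ACA small nucleolar ribonucleoproteins (snoRNPs) methylate its riboses and convert its uridines, and separate sets of factors then mature the 40S and 60S subunits. Demand for new ribosomes is high in dividing cells, and the intestinal crypt, where stem cells and their rapidly dividing progeny sit, is among the most proliferative tissues of the adult body.

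The promoters of 5 members are shown first, each as the 250 bases before the transcription start in RefSeq's GRCm38.p6 assembly, in the direction of transcription. The windows are chr16:13780449-13780698 (plus strand) for Rrn3, chr6:125131633-125131882 (plus strand) for Nop2, chr2:130274162-130274411 (plus strand) for Nop56, chr3:129831397-129831646 (minus strand) for Gar1 and chr10:88826815-88827064 (minus strand) for Utp20, and no annotated exon overlaps any of them. Rrn3 and Nop2 were chosen for their motif, as the members with an E-box. Nop56 stands for members that were much higher in GFP-high cells of every gut part, and Gar1 and Utp20 for members that departed from that pattern. Capitals mark the E-box CACGTG, the GC box GGGCGG and the ETS core CCGGAAG on either strand, and no letter lies in more than 1 of these motifs.
Rrn3: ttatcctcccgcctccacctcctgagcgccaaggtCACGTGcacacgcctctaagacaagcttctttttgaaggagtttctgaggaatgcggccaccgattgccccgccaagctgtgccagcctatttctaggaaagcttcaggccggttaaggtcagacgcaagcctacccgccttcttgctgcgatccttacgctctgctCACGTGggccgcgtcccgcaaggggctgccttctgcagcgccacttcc
Nop2: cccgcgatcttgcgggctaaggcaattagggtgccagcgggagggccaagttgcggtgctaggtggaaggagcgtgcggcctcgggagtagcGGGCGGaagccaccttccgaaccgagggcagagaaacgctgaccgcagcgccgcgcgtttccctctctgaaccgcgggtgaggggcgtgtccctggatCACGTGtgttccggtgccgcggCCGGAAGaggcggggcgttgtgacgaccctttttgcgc
Nop56: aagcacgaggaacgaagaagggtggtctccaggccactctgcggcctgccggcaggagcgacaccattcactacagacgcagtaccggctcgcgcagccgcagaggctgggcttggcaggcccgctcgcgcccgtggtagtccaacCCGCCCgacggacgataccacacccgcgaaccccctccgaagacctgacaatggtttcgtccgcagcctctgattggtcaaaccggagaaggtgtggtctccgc
Gar1: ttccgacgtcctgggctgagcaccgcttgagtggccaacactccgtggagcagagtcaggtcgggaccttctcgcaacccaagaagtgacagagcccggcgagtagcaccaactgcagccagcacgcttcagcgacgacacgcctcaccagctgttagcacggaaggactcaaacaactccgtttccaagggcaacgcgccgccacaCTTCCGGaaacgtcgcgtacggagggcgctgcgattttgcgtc
Utp20: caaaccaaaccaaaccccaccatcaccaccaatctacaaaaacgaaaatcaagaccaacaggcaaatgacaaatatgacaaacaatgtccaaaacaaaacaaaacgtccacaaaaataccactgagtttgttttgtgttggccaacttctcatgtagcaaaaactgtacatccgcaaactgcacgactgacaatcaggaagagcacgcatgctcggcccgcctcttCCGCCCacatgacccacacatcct
RefSeq promoter windows were matched by symbol for 38 of the 43 members, 47 windows in all. The GC box was in 63.8% of these windows and in 32.7% of all 32851 windows, and the ETS core in 17.0% and 6.91%. The E-box was in 4.26% of the members' windows and 6.02% of all windows, and the CCAAT box, searched as CCAAT, in 23.4% and 33.8%. A match says only that the letters are present.

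The 60 libraries held between 55411864 and 113917959 counts each. In GFP-high cells Lgr5 exceeded its GFP-negative level by 6.87, 7.20 and 7.46 on the log2 scale from the proximal to the distal small intestine, and by 4.44 and 4.97 in the proximal and distal colon. All 7 epithelial markers were detected in every group, with summed levels of 5592 to 20926 CPM, a count divided by the scaled total of its library. Markers of other cells moved with the GFP fractions: of 15 leukocyte markers, 14, 13, 14, 14 and 15 were below their GFP-negative level in GFP-high cells of those 5 parts, and all 8 Paneth cell markers were higher in GFP-high cells of each small intestinal part. Markers of differentiated cells were mostly lower in GFP-high cells: 12, 12, 11, 6 and 3 of 12 enterocyte and colonocyte markers, 7, 7, 7, 4 and 4 of 7 goblet cell markers and 8, 7, 8, 8 and 6 of 8 enteroendocrine markers were called lower in those parts. All 6 tuft cell markers were higher in GFP-high cells of each small intestinal part and lower in the distal colon. Libraries of number 1 did not come from the same animal in both organs. The Y-linked gene Ddx3y was at 0 in every small intestinal library of that number and at 40.1 to 46.4 CPM in its colon libraries. The highest library of each small intestinal group stood at 53.5 to 69.0 CPM, and no colon library lay below 40.1 CPM. Small intestinal groups thus mixed libraries with and without this Y-linked signal, which points to both sexes, and colon groups did not. The 4 numbers also differed. In the GFP-negative libraries of number 4 the 5792 genes richest in G and C lay below the 5792 poorest by 0.15 to 0.66 on the log2 scale, relative to the mean library, whereas they lay above them by 0.20 to 0.49 in the GFP-negative libraries of numbers 1 to 3. Among the members, Gar1, Rrp9, Nop10, Nhp2, Ubtf, Rrs1 and Nob1 were lowest in number 4 in all 5 GFP-negative groups, and Nop58 and Heatr1 were highest in it in all 5. Counts of members without number 4 are given beside the comparisons or in the closing section.

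As a set, the members were most abundant in GFP-high and GFP-intermediate cells of the small intestine. Their geometric mean in the proximal small intestine was 108, 111, 106 and 104 CPM in GFP-high libraries 1 to 4, 113, 104, 106 and 101 CPM in GFP-intermediate libraries, and 53.1, 41.2, 48.4 and 42.7 CPM in GFP-negative libraries. Every GFP-high and GFP-intermediate library there lay above every GFP-negative one. In the distal small intestine the group means were 96.8 ± 7.15 CPM (SD, n = 4) in GFP-high, 103.7 ± 5.81 in GFP-intermediate and 37.9 ± 6.71 in GFP-negative cells, the lowest group of all. The colon had a narrower range. Proximal colon libraries read 64.6, 64.5, 78.1 and 64.6 CPM in GFP-high and 47.9, 56.0, 46.2 and 46.0 CPM in GFP-negative cells, and distal colon libraries 69.2, 64.0, 86.6 and 75.2 CPM and 48.4, 53.4, 56.8 and 44.6 CPM. GFP-high and GFP-negative libraries did not overlap in either colon part, but GFP-high colon cells stayed below every GFP-high small intestinal library, of which the lowest was 89.6 CPM. In bulk samples such as these, fewer cells of a type and less RNA per cell cannot be told apart.

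**Figure D1:**
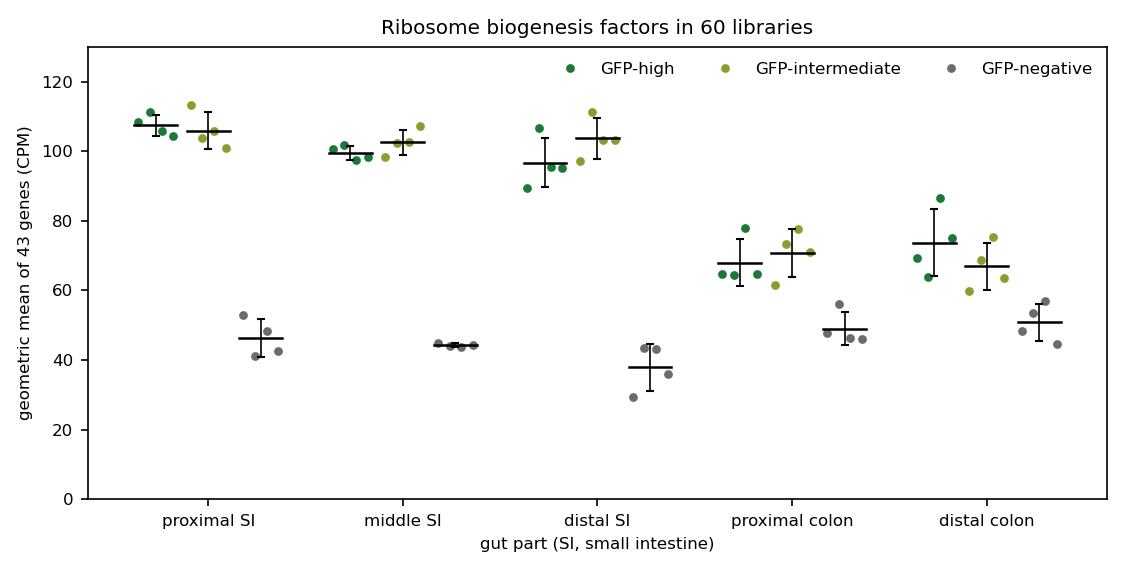
Geometric mean level of the 43 genes in CPM (vertical axis) for each of the 60 libraries, by gut part and GFP fraction; points are libraries and bars show the group mean with SD. GFP-negative groups are lowest in every part, and the step up to GFP-high and GFP-intermediate cells is wider in the 3 small intestinal parts than in the 2 colon parts.

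Compared per length, in RPKM, which divides a count by the deposited gene length and the library size, the most abundant members over all libraries were Npm1, a histone chaperone of the outer nucleolus (237 RPKM), Ncl, which encodes nucleolin, a binder of precursor rRNA (97.1 RPKM), and Nhp2, a core H/ACA snoRNP protein (72.8 RPKM). Wdr12 was the least abundant by this measure at 2.79 RPKM. The deposited lengths of Npm1, Ncl, Nhp2 and Wdr12 equal all annotated exon bases of each gene, 11955 for Wdr12. The order in RPKM therefore depends on the annotation. By mean CPM, without length, Ncl (989.337 CPM) stood above Npm1 (630.843 CPM). The lowest member was then Rrp9 (26.951 CPM), below Wdr12 (33.345 CPM). The highest of the 15 group means was in GFP-high cells of the small intestine for 25 members and in GFP-intermediate cells of the small intestine for 16. The exceptions were Utp20, highest in GFP-high cells of the distal colon, and Tsr1, highest in GFP-negative cells of the distal colon. All 43 had their lowest mean in a GFP-negative group, 35 of them in the distal small intestine. Within a member, the highest group mean was between 1.74 times (Ubtf) and 5.02 times (Gnl3) the lowest.

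Between GFP-high and GFP-negative cells, the 2 ends of the sort, a member was called higher or lower at an adjusted p below 0.05 (edgeR's quasi-likelihood test, Benjamini-Hochberg adjustment over 23360 genes). In the proximal small intestine 42 of 43 members were higher, against 22.5% of all genes tested. In the middle small intestine 39 were higher (background 22.7%), and in the distal small intestine 41 (background 25.7%). In the proximal colon 30 were higher (background 11.3%) and in the distal colon 30 (background 11.2%). 0 members were lower in any of the 5 parts, where 24.6%, 25.6%, 26.2%, 14% and 13.9% of all genes were. The members' median log2 difference was 1.24, 1.26 and 1.46 in the 3 small intestinal parts and 0.44 and 0.52 in the 2 colon parts, while the median of all genes tested lay between -0.04 and 0.00. Among the 7074 genes at least as abundant as Rrp9, the member with the lowest mean CPM (26.951 CPM), 32.7%, 32.9%, 38.2%, 20.4% and 20.2% were higher. Leaving out number 4 gave 42, 36, 39, 25 and 26 members higher, and leaving out number 3 lowered the proximal colon count to 18. A fit of only the 2 groups compared gave 41, 41, 40, 20 and 27, and DESeq2's Wald test 40, 38, 38, 26 and 30. In the proximal colon the fit of 2 groups called 2899 genes in either direction, against 5912 in the fit of all groups. Of the 43, 29 were higher in all 5 parts, as were 6.57% of all genes.

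Many of these differences could be read from the libraries directly. Every GFP-high library lay above every GFP-negative one for 41, 39 and 39 members from the proximal to the distal small intestine (21.7%, 21.4% and 21.1% of all genes), and for 25 and 26 in the proximal and distal colon (8.76% and 10.3%). Cell cycle genes moved the same way: of 12 cycling cell markers, 11 were higher in GFP-high cells of the proximal small intestine and 12 in each other part. Their summed level was 2928 to 3949 CPM in GFP-high and 501 to 1749 CPM in GFP-negative small intestinal libraries, and 1847 to 3782 CPM and 748 to 1632 CPM in the colon. The leukocyte markers summed to 197 to 728 CPM in GFP-high and 901 to 3100 CPM in GFP-negative libraries of the proximal small intestine, without overlap. The ranges overlapped in the middle (819 to 1514 against 1048 to 2493 CPM) and distal part (1239 to 2109 against 1981 to 3566 CPM). Ptprc alone overlapped in none of these parts, at most 33.2 CPM in GFP-high and at least 49.5 CPM in GFP-negative libraries. In the colon the leukocyte markers summed to 29.1 to 67.2 CPM and 192 to 1438 CPM, with Tyrobp at 0 in GFP-high cells of the distal colon. The Paneth cell markers summed to 5710 to 28553 CPM in GFP-high and 474 to 1645 CPM in GFP-negative small intestinal libraries. Enterocyte and colonocyte markers summed to 540 to 2608 CPM in GFP-high and 10921 to 32848 CPM in GFP-negative small intestinal libraries, and to 60.9 to 400 CPM and 203 to 833 CPM in the colon. Goblet cell markers summed to 1828 to 4145 CPM and 33073 to 59732 CPM in the small intestine, and to 12412 to 31250 CPM and 17919 to 58234 CPM in the colon. Enteroendocrine markers summed to 108 to 362 CPM in GFP-high and 3808 to 11498 CPM in GFP-negative libraries of the proximal colon, and to 66.9 to 231 CPM and 247 to 986 CPM in the other 4 parts. The part of these cell populations in the members' differences was not tested.

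**Figure D2:**
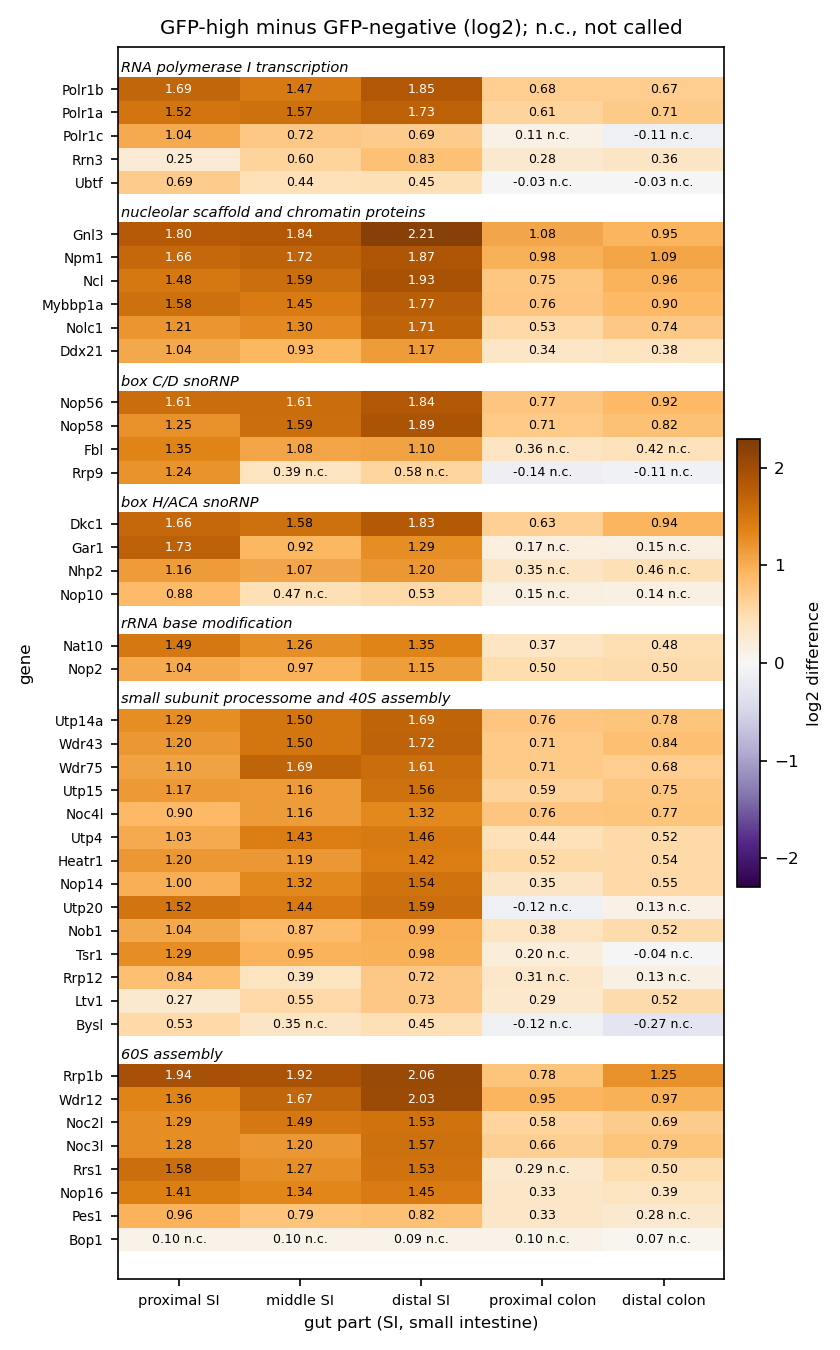
Heat map of the log2 difference between GFP-high and GFP-negative cells for each of the 43 genes (vertical axis, grouped by role) in the 5 gut parts (horizontal axis); n.c. marks a difference that did not pass the test. Nearly all small intestinal differences pass, up to 2.21 for Gnl3, while Ubtf, Gar1, Utp20, Tsr1 and some others pass in the small intestine only, and Bop1 in no part.

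RNA polymerase I transcription was represented by 5 members, all higher in each small intestinal part and 3 of them in each colon part. Polr1b, the second largest subunit of the polymerase, had the widest difference on average over the 5 parts, with 1.69 ± 0.12 (log2, SE), 1.47 ± 0.12 and 1.85 ± 0.12 from proximal to distal small intestine and 0.68 ± 0.11 and 0.67 ± 0.11 in the colon. Its levels in the distal small intestine were 83.4, 102, 92.5 and 89.0 CPM in GFP-high and 18.8, 30.3, 28.9 and 24.0 CPM in GFP-negative libraries, with no overlap. Rrn3, the initiation factor that carries the polymerase to its promoter, moved less in the proximal small intestine, at 59.6, 63.6, 58.0 and 56.7 CPM against 50.9, 50.4, 49.8 and 49.6 CPM. The groups did not overlap, and the log2 difference was 0.25 ± 0.09 (adjusted p = 0.0204, edgeR). In the distal small intestine the difference of Rrn3 was 0.83 ± 0.09. Ubtf, the architectural factor of ribosomal DNA, was higher by 0.69 ± 0.16 in the proximal small intestine. Its colon differences were -0.03 ± 0.15 in both parts, with 95% intervals of -0.34 to 0.28. Proximal colon libraries of Ubtf read 140, 170, 151 and 196 CPM in GFP-high and 187, 203, 175 and 104 CPM in GFP-negative cells, where number 4 alone lay below all GFP-high libraries. Without GFP-negative library 4, the Ubtf difference missed the threshold in the middle (0.32, adjusted p = 0.104, edgeR) and distal small intestine (0.36, adjusted p = 0.0627, edgeR). Without GFP-high library 4 it missed it in the middle small intestine (0.35, adjusted p = 0.0786, edgeR).

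The 6 nucleolar scaffold and chromatin proteins were higher in all 5 parts. Gnl3, which encodes nucleostemin, a nucleolar GTPase first described in stem cells, had the largest differences of the class except in the distal colon. It read 119, 128, 112 and 117 CPM in GFP-high and 19.7, 33.8, 25.4 and 23.9 CPM in GFP-negative libraries of the distal small intestine, a log2 difference of 2.21 ± 0.14 (adjusted p = 4.84e-19, edgeR). In the proximal colon the same gene read 73.7, 72.9, 105 and 65.9 CPM against 32.1, 37.5, 43.1 and 37.5 CPM, a difference of 1.08 ± 0.13. Neither pair of groups overlapped. Ncl rose from 687, 469, 595 and 546 CPM in GFP-negative to 1489, 1649, 1619 and 1631 CPM in GFP-high libraries of the proximal small intestine, a difference of 1.48 ± 0.13. In the distal colon it read 520, 573, 557 and 513 CPM against 1004, 804, 1342 and 1050 CPM, a difference of 0.96 ± 0.13. Npm1 was higher by 1.66 to 1.87 in the small intestine and by 0.98 and 1.09 in the colon. Ddx21, an RNA helicase of rRNA transcription and processing, had the smallest differences of the class, 0.93 to 1.17 in the small intestine. Its colon differences of 0.34 ± 0.13 (adjusted p = 0.0445, edgeR) and 0.38 ± 0.13 (adjusted p = 0.0214, edgeR) lay near the threshold, which they missed in 9 and 4 of the 12 fits without 1 library or 1 number.

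The box C/D snoRNP, which methylates rRNA riboses, had 4 members, of which 4, 3 and 3 were higher in the small intestinal parts and 2 in each colon part. Nop56 and Nop58, the paired scaffold proteins of the particle, were higher throughout. Nop56 read 247, 265, 233 and 245 CPM in GFP-high and 106, 65.7, 82.5 and 70.5 CPM in GFP-negative libraries of the proximal small intestine, a log2 difference of 1.61 ± 0.15. In the distal colon its difference was 0.92 ± 0.15, from libraries at 115, 126, 169 and 124 CPM and at 62.7, 79.7, 85.0 and 56.1 CPM. Both comparisons were without overlap. Fbl, which encodes the methyltransferase fibrillarin, was higher by 1.35 ± 0.20, 1.08 ± 0.20 and 1.10 ± 0.20 in the small intestine. Its colon differences of 0.36 ± 0.20 and 0.42 ± 0.20 did not pass (adjusted p = 0.196 and 0.126, edgeR), although without GFP-negative library 2 the proximal colon one did (0.56, adjusted p = 0.0469, edgeR). Rrp9, which binds the U3 snoRNA that guides early cleavage, was called in the proximal small intestine alone, by 1.24 ± 0.34, from 27, 16.4, 20.3 and 10.9 CPM to 47.1, 46.1, 41.4 and 41.0 CPM. In the distal small intestine GFP-high libraries of Rrp9 read 13.1, 29.8, 23.5 and 26.6 CPM and overlapped GFP-negative libraries at 15.8, 18.1, 21.0 and 7.37 CPM. The interval of that difference was -0.09 to 1.25.

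The box H/ACA snoRNP converts uridines to pseudouridines. Its catalytic protein Dkc1 (dyskerin) was higher in all 5 parts, by 1.66 ± 0.12, 1.58 ± 0.12 and 1.83 ± 0.12 in the small intestine and 0.63 ± 0.12 and 0.94 ± 0.12 in the colon. Proximal small intestinal libraries of Dkc1 read 138, 145, 147 and 144 CPM in GFP-high and 44.0, 37.4, 53.4 and 46.7 CPM in GFP-negative cells. Its partners Gar1, Nhp2 and Nop10 did not pass in either colon part. Gar1 read 98.5, 94.2, 97.6 and 90.8 CPM in GFP-high and 42.1, 29.0, 30.1 and 13.4 CPM in GFP-negative libraries of the proximal small intestine, a difference of 1.73 ± 0.32. In the distal colon it read 27, 20.2, 40.3 and 39.6 CPM against 31.7, 32.2, 39.3 and 11.1 CPM, with overlap and a 95% interval of -0.47 to 0.78. In the middle small intestine Gar1 was higher by 0.92 ± 0.31, but not without GFP-high library 4 (0.78, adjusted p = 0.0514, edgeR) or without GFP-negative library 4 (0.69, adjusted p = 0.0774, edgeR). Nop10 was higher by 0.88 ± 0.23 in the proximal small intestine; its distal small intestinal difference of 0.53 ± 0.23 passed only just (adjusted p = 0.0467, edgeR) and missed the threshold in 10 of 12 fits without 1 library or 1 number. The 2 enzymes that modify rRNA bases were higher in all 5 parts. Nat10, the cytidine acetyltransferase, was higher by 1.26 to 1.49 in the small intestine and by 0.37 and 0.48 in the colon, and Nop2, a cytosine methyltransferase of 28S rRNA, by 0.97 to 1.15 and by 0.50 in each colon part. In a fit of only the groups compared, both missed the threshold in the proximal colon (adjusted p = 0.0735 for Nat10 and 0.0597 for Nop2, edgeR).

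Among the 14 members of the small subunit processome and 40S assembly, 14, 13 and 14 were higher in the small intestinal parts and 10 in each colon part. Utp14a, the activator of the processome's helicase, was higher by 1.29 ± 0.13, 1.50 ± 0.13 and 1.69 ± 0.13 and, in the colon, by 0.76 ± 0.13 and 0.78 ± 0.13. In the distal small intestine it read 81.3, 74.3, 79.5 and 67.5 CPM in GFP-high and 17.4, 22.0, 29.2 and 25.0 CPM in GFP-negative libraries, without overlap. Utp20, a large repeat protein of the processome, and Tsr1, a GTPase-like factor of late pre-40S particles, behaved differently by organ. Utp20 read 121, 118, 112 and 113 CPM in GFP-high and 36.5, 32.8, 46.3 and 45.5 CPM in GFP-negative libraries of the proximal small intestine, a difference of 1.52 ± 0.18. In the proximal colon it read 135, 143, 135 and 109 CPM against 126, 138, 107 and 195 CPM, a difference of -0.12 ± 0.17 with a 95% interval of -0.46 to 0.23. The colon groups of Utp20 overlapped, and GFP-negative number 4 was the highest library. Tsr1 was higher by 1.29 ± 0.13 in the proximal small intestine, whereas in the distal colon its libraries read 74.0, 68.4, 77.1 and 69.5 CPM in GFP-high and 63.5, 73.7, 79.4 and 79.7 CPM in GFP-negative cells. Of the annotated exon bases of Tsr1, 32.3% also lie in exons of Srr, so its count may depend on how reads of these bases were assigned. That was not tested. Bysl, a pre-40S factor, and Ltv1, a 40S export factor, had the smallest differences of the class when averaged over the 5 parts, at 0.19 and 0.47. Bysl was higher by 0.53 ± 0.19 and 0.45 ± 0.19 in the proximal and distal small intestine, calls that were lost in 4 and 5 of the 12 fits without 1 library or 1 number. Ltv1 was higher by 0.27 ± 0.11 in the proximal small intestine, a call lost in 7 of 12, and by 0.73 ± 0.11 in the distal small intestine.

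Of the 8 members of 60S assembly, 7 were higher in each small intestinal part and 6 in each colon part. Rrp1b, a nucleolar protein phosphatase regulator, had the largest differences of any member but Gnl3 in the distal small intestine, where it read 72.5, 80.9, 63.0 and 65.5 CPM in GFP-high and 11.1, 16.4, 16.4 and 23.6 CPM in GFP-negative libraries. The log2 difference was 2.06 ± 0.16, and in the distal colon it was 1.25 ± 0.16. The proteins Bop1, Pes1 and Wdr12 form the PeBoW complex, which is needed to mature the large subunit rRNA, and their genes differed. Wdr12 was higher by 1.36 ± 0.15, 1.67 ± 0.15 and 2.03 ± 0.15 in the small intestine and by 0.95 ± 0.15 and 0.97 ± 0.15 in the colon, and Pes1 by 0.96 ± 0.11, 0.79 ± 0.11 and 0.82 ± 0.11 and, in the proximal colon, by 0.33 ± 0.11. Bop1 passed in no part. It read 91.0, 77.8, 86.0 and 82.2 CPM in GFP-high and 89.1, 71.9, 81.0 and 72.2 CPM in GFP-negative libraries of the proximal small intestine, and the groups overlapped. Its 5 differences were 0.07 to 0.10 ± 0.15, with adjusted p from 0.619 to 0.801 (edgeR) and intervals that reached at most 0.40.

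**Figure D3:**
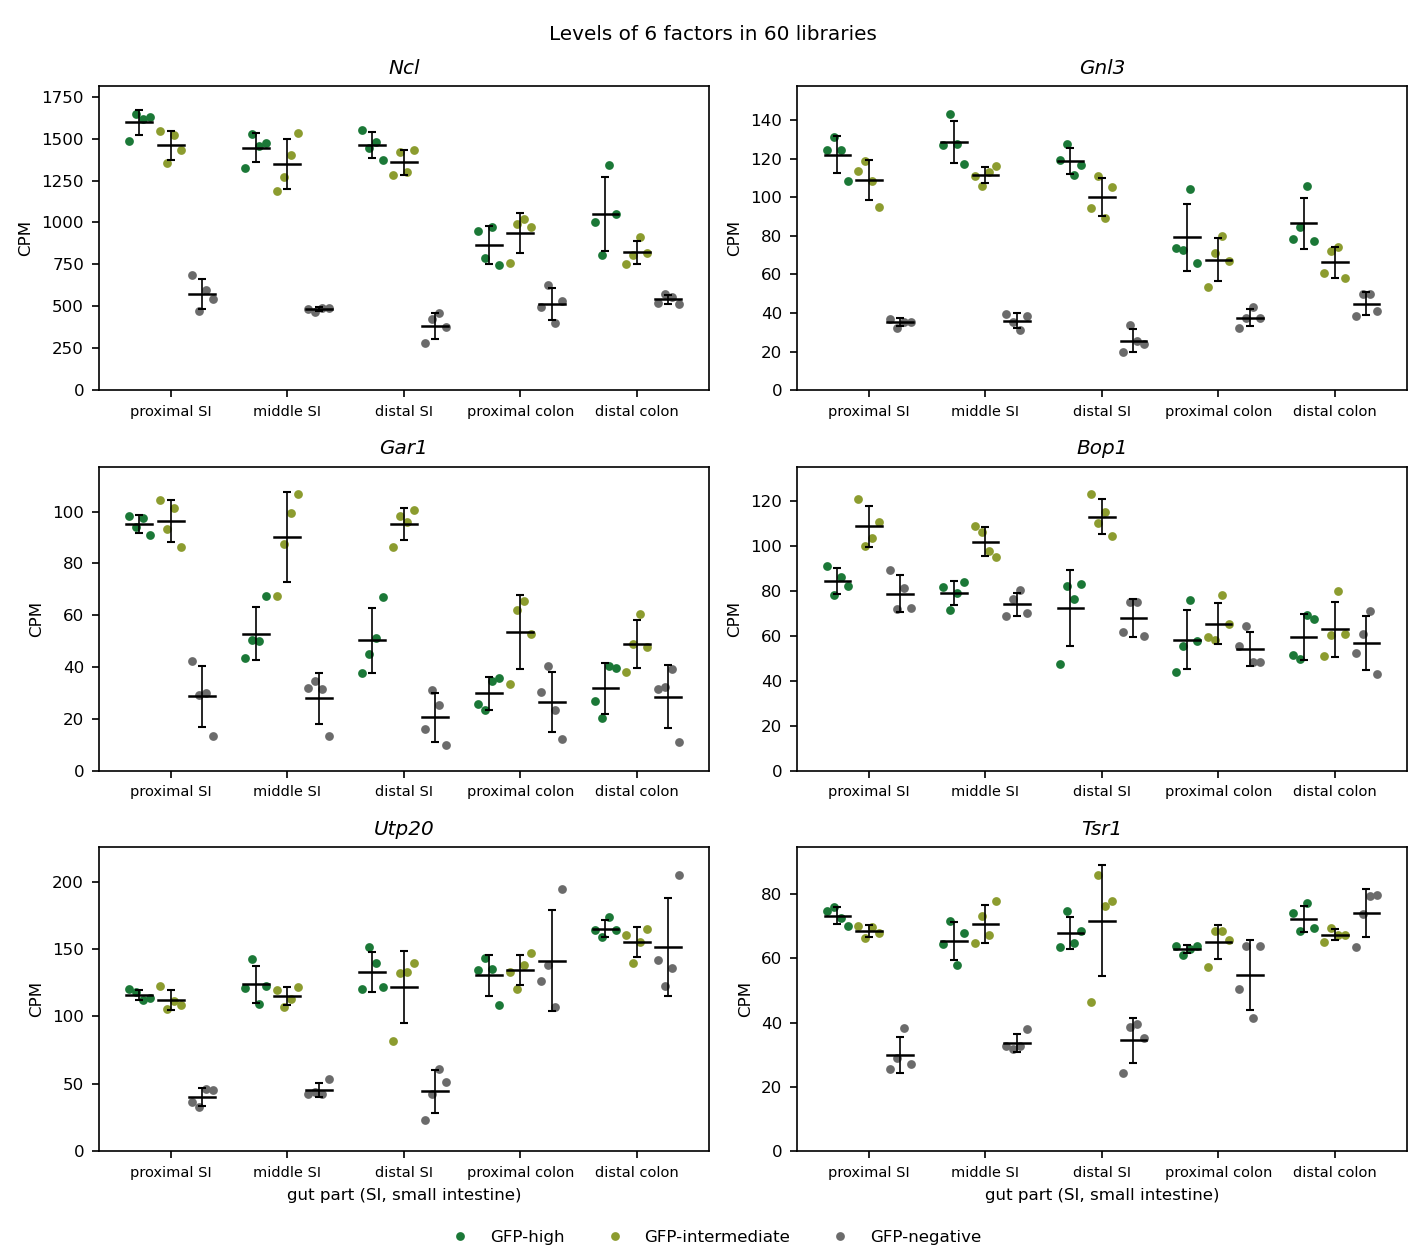
Level in CPM (vertical axis) of Ncl, Gnl3, Gar1, Bop1, Utp20 and Tsr1 in each of the 60 libraries, by gut part and GFP fraction; each point is 1 library. Ncl and Gnl3 are lowest in GFP-negative cells of every part, Gar1 and Bop1 are high in GFP-intermediate cells of the distal small intestine, and Utp20 and Tsr1 are low in GFP-negative cells of the small intestine but not of the colon.

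The libraries differed in their GC profile, the level of GC-rich against GC-poor genes. When each library's GC profile was removed through an offset, an alternative chosen after seeing the data, 40, 42, 42, 31 and 33 members were higher in the 5 parts and 0 lower. Of the 23360 genes tested, 11423, 11453, 12191, 6126 and 5866 were then called in either direction. Under the offset Bop1 (58.2% GC) was called in 4 parts, at 0.41 and 0.40 in the middle and distal small intestine and 0.39 and 0.40 in the proximal and distal colon, with adjusted p of 0.0151, 0.0174, 0.0386 and 0.0339 (edgeR). Rrp9 (59.9% GC) was then also called in the middle small intestine at 0.81 and in the distal small intestine at 1.04. Fbl was called in the distal colon at 0.48 (adjusted p = 0.0418, edgeR), and Rrp12, a factor of subunit export, in both colon parts at 0.49 and 0.33. Of the 42, 39, 41, 30 and 30 members called higher without the offset, 40, 39, 40, 27 and 28 remained called. Calls lost included those of Ddx21 in both colon parts (0.25 and 0.24) and of Ltv1 in the proximal small intestine (0.13) and proximal colon (0.21). That of Nop10 in the distal small intestine (0.29) was also lost. Utp20, Tsr1 and Gar1 remained uncalled in the colon.

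GFP-intermediate cells, which held less Lgr5 than GFP-high cells, also held more of the members than GFP-negative cells did. With the parts of an organ averaged, all 43 members were higher in GFP-intermediate than in GFP-negative cells of the small intestine (background 29.3%), by a median of 1.25. In the colon 32 were higher (background 10.8%), by a median of 0.47, and 0 were lower. Every GFP-intermediate library lay above every GFP-negative one for 43 members in each of the 3 small intestinal parts (18.7%, 20.9% and 19.6% of all genes), Bop1 included, and for 22 and 20 members in the proximal and distal colon (9.23% and 7.05%). Bop1 was higher by 0.55 ± 0.09 in the small intestine, where its GFP-intermediate libraries of the proximal part read 121, 99.8, 103 and 110 CPM. Utp20 and Tsr1 did not pass in the colon, at -0.02 ± 0.12 and 0.05 ± 0.09. The comparisons of GFP-high and of GFP-intermediate cells share the GFP-negative libraries.

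The direct comparison of GFP-high with GFP-intermediate cells called members in both directions. In the small intestine 8 were higher in GFP-high cells (background 10.4%) and 9 lower (background 13.4%), with a median of 0.03 over all 43. Of the genes at least as abundant as Rrp9, 16.5% were higher and 29.2% lower. The members' share was thus near that of these genes for higher calls and below it for lower ones. The members higher were Utp14a (0.31 ± 0.07), Nop58 (0.31 ± 0.09), Wdr43, Wdr75, Wdr12, Npm1, Gnl3 and Utp4. The members lower were Rrp9 (-0.67 ± 0.19), Gar1 (-0.57 ± 0.18), Bysl (-0.47 ± 0.11), Bop1 (-0.46 ± 0.09), Rrp12, Nop10, Fbl, Nhp2 and Pes1. In the colon 12 were higher (background 4.83%), led by Nop58 at 0.41 ± 0.11, and Gar1 alone was lower at -0.73 ± 0.22 (background 7.2%). Of the genes at least as abundant as Rrp9, 10.6% were higher and 15.3% lower there. A fit of only the groups compared and DESeq2's Wald test each called 3 lower in the colon. These were Gar1, Rrp9 (-0.56 and -0.58) and Ubtf (-0.27 and -0.29). Distal colon libraries of Nop58 read 177, 160, 207 and 156 CPM in GFP-high and 109, 119, 125 and 108 CPM in GFP-intermediate cells, without overlap. Distal small intestinal libraries of Gar1 read 37.9, 45.0, 51.2 and 67.1 CPM in GFP-high and 86.4, 98.2, 95.9 and 101 CPM in GFP-intermediate cells, also without overlap.

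The order of the members in this comparison followed GC content. Across the 43 members the log2 difference between GFP-high and GFP-intermediate cells had a Spearman rank correlation with transcript GC content of -0.74 in the small intestine and -0.65 in the colon, a description across genes that share libraries. Across 23167 genes with a GC value it was -0.33 and -0.38. The 8 members among the 5792 genes poorest in GC had medians of 0.22 and 0.34 in the small intestine and colon, and the 11 among the 5792 richest -0.33 and -0.17. The medians of all genes in the same 2 classes were 0.19 and 0.21, and -0.24 and -0.27. With the GC offset, 5 members were called in the small intestine (2 higher, 3 lower) and 2 in the colon (both higher), of which 4 and 1 were among those called without it. Of the 23360 genes tested, 4451 and 1529 were called with the offset in either direction. Rrp9 then stood at -0.28 (adjusted p = 0.0715, edgeR) and Gar1 at -0.32 (adjusted p = 0.0977, edgeR) in the small intestine. The counts also rested on few libraries. In the small intestine 4, 4, 5 and 17 members were called without numbers 1, 2, 3 and 4, the last being 7 higher and 10 lower, and 11 without GFP-high library 2 of the middle part. In the colon 0, 2, 0 and 16 were called without numbers 1, 2, 3 and 4, the last being 11 higher and 5 lower, with Gar1 at -0.85. Without GFP-high library 1 or 3 of the proximal colon 4 and 7 were called, without GFP-high library 3 of the distal colon 4, and without GFP-intermediate library 1 of the proximal or 4 of the distal colon 7 each. Of the cycling cell markers, 0 of 12 were called in the small intestine and 4 of 12 were higher in GFP-high cells in the colon.

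**Figure D4:**
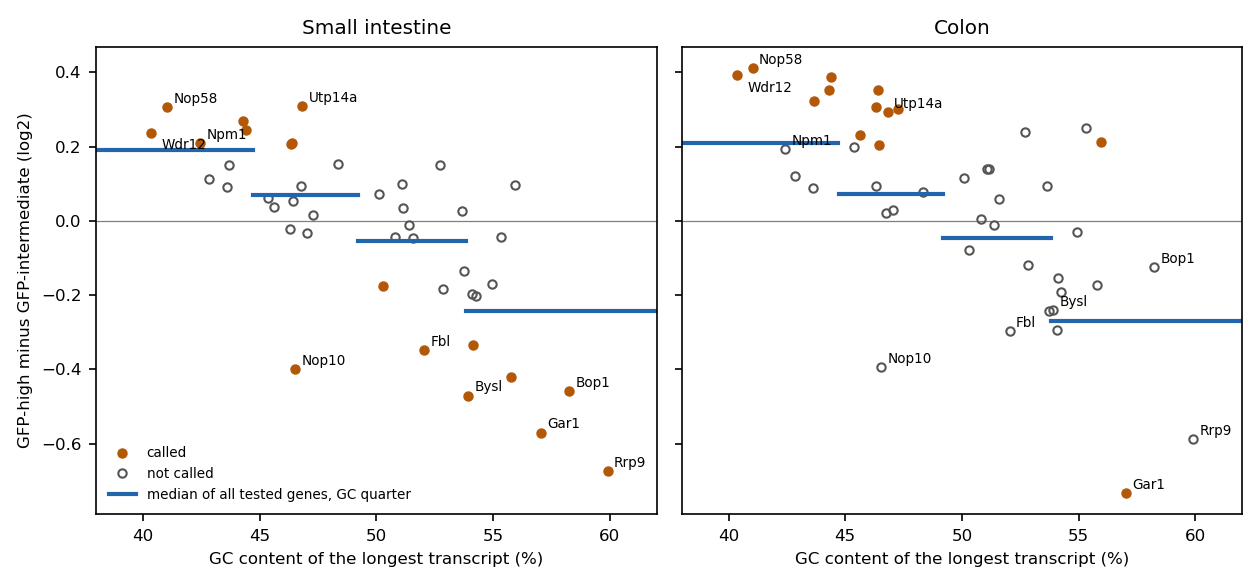
Log2 difference between GFP-high and GFP-intermediate cells (vertical axis) against GC content of the longest transcript in percent (horizontal axis) for the 43 genes, in the small intestine and the colon; filled points passed the test and blue lines give the median of all genes tested in each of 4 equal classes of GC content. Low-GC members such as Nop58 lie above 0 and high-GC members such as Rrp9, Gar1 and Bop1 below it, along the slope of all genes.

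Between organs, GFP-high cells of the colon held less of most members than GFP-high cells of the small intestine. The minimum number of sorted cells, 30000 in the colon and 50000 in the small intestine, goes with the organ in every comparison between organs. Libraries without Ddx3y were in the small intestine only. The part of cell number and of sex in the differences was not tested. With parts averaged, 38 of 43 were lower in the colon (background 21.3%) and 0 higher (background 20.9%), with a median log2 difference of -0.54 against -0.04 for all genes. Of the genes at least as abundant as Rrp9, 35.6% were lower and 23.9% higher. Gar1 (-1.04 ± 0.21), Dkc1 (-0.90 ± 0.08), Fbl (-0.82 ± 0.13) and Rrp1b (-0.80 ± 0.10) had the widest differences. Dkc1 libraries in GFP-high cells ranged from 124 to 147 CPM in the small intestine and from 61.6 to 98.9 CPM in the colon, without overlap. The 5 that did not pass were Utp20 (0.24 ± 0.11), Tsr1, Polr1c, Wdr75 and Bysl. The call of Utp20 depended on the setting. It was higher in the colon with the GC offset (0.29, adjusted p = 0.0127, edgeR) and with only the groups compared (0.29, adjusted p = 0.000645, edgeR). It was also called with DESeq2's size factors (0.26), total counts alone (0.30), no filter (0.28) and DESeq2's Wald test (0.26). Their adjusted p ran from 0.0259 to 0.0474 (edgeR or DESeq2). The replicate block and the newer quasi-likelihood method did not call it.

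In GFP-negative cells the difference ran the other way for some members. There 18 were higher in the colon (background 28.1%) and 2 lower (background 22.4%), with a median of 0.16. Utp20 stood far from the rest at 1.75 ± 0.11 (adjusted p = 6.72e-20, edgeR). Its GFP-negative libraries ranged from 22.8 to 61.1 CPM in the small intestine and from 107 to 205 CPM in the colon, without overlap, whereas its GFP-high libraries spanned 110 to 151 CPM and 109 to 174 CPM. Tsr1 was higher by 0.96 ± 0.08, Rrs1, a 60S assembly factor, by 0.76 ± 0.12 and Polr1c, a subunit shared by RNA polymerases I and III, by 0.73 ± 0.11. Srr, which shares exons with Tsr1, had group means of 22.3 to 33.4 CPM in GFP-negative cells of the small intestine and 8.00 to 13.6 CPM in all other groups. Bop1 (-0.40 ± 0.10) and Ltv1 (-0.27 ± 0.07) were lower. With scaling by total counts alone the median of all genes moved by 0.22 and 32 members were higher and 0 lower, and Bop1 (-0.19) and Ltv1 (-0.05) were no longer called.

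**Figure D5:**
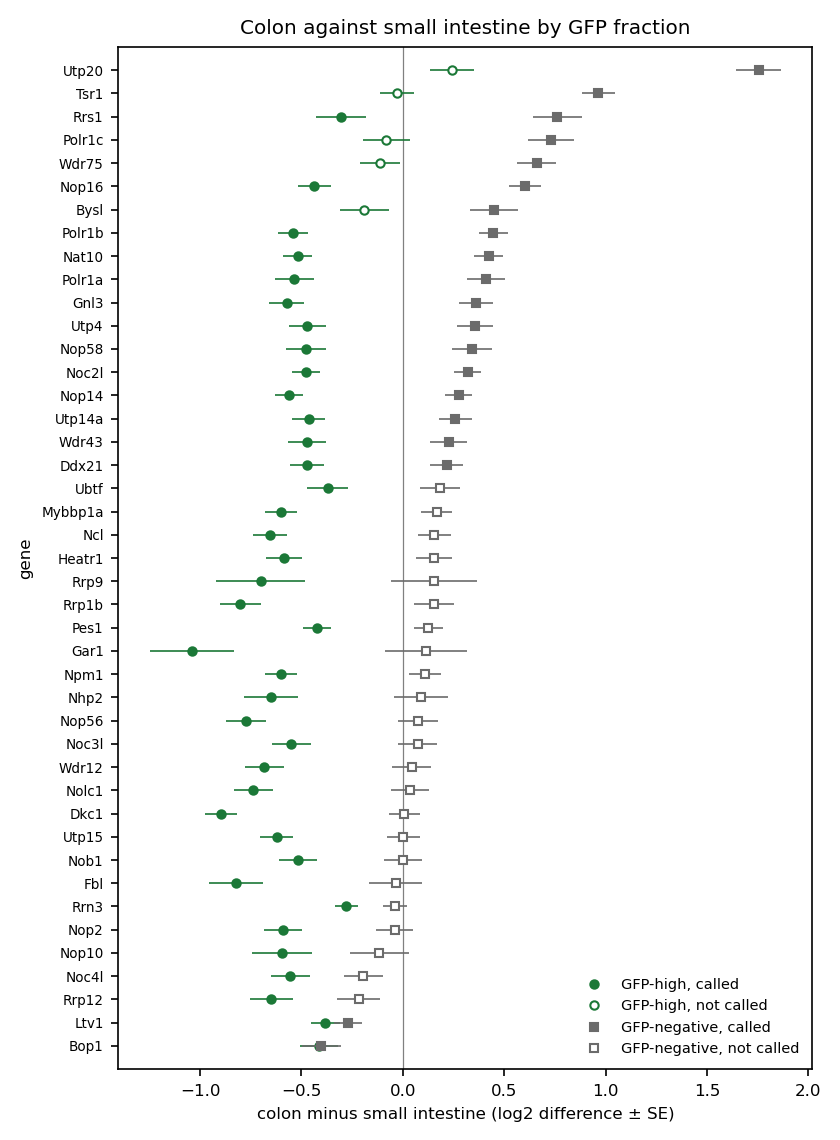
Log2 difference between colon and small intestine (horizontal axis, parts averaged, bars give the SE) for each of the 43 genes, in GFP-high cells (circles) and GFP-negative cells (squares). Circles lie below 0 for nearly all genes, while squares lie around or above 0, and Utp20 has its square at 1.75.

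The test of the organ difference itself compared the GFP-high minus GFP-negative difference of the colon with that of the small intestine. It was smaller in the colon for 40 of 43 members (background 17.7%), 41 without number 4, and larger for 0 (background 14.5%), with a median of -0.77 against -0.07 for all genes. Utp20 (-1.51 ± 0.16, adjusted p = 3.51e-11, edgeR), Gar1 (-1.15 ± 0.29), Rrs1 (-1.07 ± 0.17), Nop16, a 60S factor (-1.04 ± 0.11), Tsr1 (-0.99 ± 0.12) and Polr1b (-0.99 ± 0.10) led the list. The 3 that did not pass were Bop1 (-0.01 ± 0.13), Ltv1 (-0.11 ± 0.10) and Nop10 (-0.48 ± 0.21, adjusted p = 0.0710, edgeR). With the replicate number as a block Nop10 passed at -0.47 (adjusted p = 0.0497, edgeR). By the same test Lgr5 itself stood at -2.47. Of the 12 cycling cell markers 4 were smaller and 0 larger in the colon, and Mki67 stood at -0.05 (adjusted p = 0.982, edgeR). Of 12 enterocyte and colonocyte markers 8 were larger in the colon and 0 smaller by this test, and of 7 goblet cell markers all were larger. The organs thus differed in some cycling cell markers and in enterocyte, goblet, leukocyte and Paneth cell markers, and their part in this difference was not tested.

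Within an organ, few members passed the test between distal and proximal GFP-high cells. Between distal and proximal colon 0 of 43 members were called higher or lower by edgeR (background 3.74% and 4.05%) and 0 by DESeq2. At an unadjusted p below 0.05 (edgeR) 5 members were higher, as were 2140 of the 23360 genes tested. With the replicate number as a block Dkc1 alone was higher distally at 0.33 (adjusted p = 0.0441, edgeR), and 1 member was called without GFP-high library 2 of the distal colon. Between distal and proximal small intestine 4 members were called, and 2 were higher and 12 lower at an unadjusted p below 0.05 (edgeR). At that threshold 6120 of the 23360 genes tested passed, 3127 of them higher. Gar1 (-0.92 ± 0.31), Rrp12 (-0.57 ± 0.16) and Nat10 (-0.35 ± 0.11) were lower distally (background 5.42%) and Ltv1 (0.31 ± 0.11) higher (background 6.39%). Gar1 read 98.5, 94.2, 97.6 and 90.8 CPM in the proximal and 37.9, 45.0, 51.2 and 67.1 CPM in the distal part, without overlap. With the GC offset 0 of these 4 were called, at -0.65 for Gar1, -0.33 for Rrp12, -0.25 for Nat10 and 0.25 for Ltv1 (adjusted p of 0.0615 to 0.106, edgeR). A fit of only the 2 groups compared called 17, of which 16 were lower and 1 higher. Only 1 was called without GFP-high library 1, 3 or 4 of the proximal part, 2 without library 2 there or without library 3 of the distal part, and 0 without library 1 of the distal part. Without numbers 1, 2, 3 and 4 the count was 0, 0, 2 and 6, the last all lower and Ltv1 not among them (adjusted p = 0.0512, edgeR). With the replicate block 7 were called, adding Nop10 (-0.64), Nop2 (-0.39) and Bysl (-0.49).

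A wider list of 119 other ribosome biogenesis factors, of which 114 were in the table and 113 were tested, gave counts in the same directions. In GFP-high against GFP-negative cells 89, 92 and 92 were higher (22.5%, 22.7% and 25.7% of all genes) and 3, 4 and 2 lower (24.6%, 25.6% and 26.2%) in the small intestinal parts, with medians of 0.70, 0.80 and 0.91. In the proximal and distal colon 55 and 65 were higher (11.3% and 11.2% of all genes) and 2 and 1 lower (14% and 13.9%), with medians of 0.35 and 0.42. Naf1, an assembly factor of the H/ACA particle that Gar1 later joins, was higher by 1.77, 1.85 and 2.55 in the small intestine and 0.61 and 1.36 in the colon. Eif6, which keeps free 60S subunits from joining 40S subunits, was lower in all 5 parts, by -0.70, -1.13, -1.17, -0.62 and -0.84. In the test between organs 72 of the 113 were smaller in the colon (17.7% of all genes) and 2 larger (14.5%).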

How the data were processed

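RNA sequencing counts of 60 libraries, 4 in each of 15 groups, were used as deposited. The authors' table holds raw counts per gene, made with STAR and Subread's featureCounts on mm10 and with edgeR named as a further tool, per the submitters' processing notes; tool versions, the annotation release and strandedness are not given in the sources used here. Without strand, reads of overlapping genes cannot be told apart, and gene coordinates were not taken from the files.

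Counts were fitted with edgeR 4.0.16 (limma 3.58.1, R 4.3.3): a default filter on low counts over the 15 groups kept 23360 genes and 99.967% to 99.9943% of each library's counts, TMM scaling was applied, and 1 quasi-likelihood fit of all groups (45 residual degrees of freedom) gave every comparison, with Benjamini-Hochberg adjustment over all genes tested and calls at an adjusted p below 0.05. Standard errors were computed as the log2 difference over the root of F. CPM use the TMM-scaled library sizes and RPKM the deposited gene length. Depth ran from 55411864 to 113917959 counts. On counts simulated from these libraries, the script was tested for its recovery of known changes.

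The members and lists were chosen with earlier results of these data known. A rule picked members to name. In each of the 7 role classes it took the member with the highest CPM. It also took those with the largest and smallest average GFP-high minus GFP-negative difference, and members not called in at least 3 of 5 parts. From each regional comparison and the test between organs it took the 4 with the smallest p. Of those picked, Noc2l and Nop14 are not described above. They were higher in all 5 parts, by 0.58 to 1.53 and by 0.35 to 1.54. In the comparisons between organs, members with wide differences are given in place of some with the smallest p. Lgr5, Mki67 and Ptprc serve as checks. Members and other factors named beyond this rule were chosen after their values were seen. The leukocyte gene Ptprc was lower in GFP-high cells by -4.87, -4.25, -3.86, -4.95 and -4.90 in the 5 parts.

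The deposited table's batch column equals the replicate number in 60 of 60 libraries, so the number was treated as a shared batch that pairs libraries; Ddx3y shows that number 1 is not the same animal in both organs. The deviations of same-numbered libraries from their group means correlated by 0.036 on average over 420 pairs, 15.0% of them above 0.1, against -0.012 over 1260 pairs of different numbers, 0.794% above 0.1. Within a small intestinal part, GFP-high and GFP-intermediate libraries of the same number correlated by 0.130, 0.138 and 0.136 from proximal to distal, and within a colon part by 0.041 and 0.102. Alternatives were other scalings, no filter, only the groups compared, the block, a fold threshold of 2, DESeq2 1.42.0 and each library or number left out. The GC offset, which used 20 bins of GC content of the longest GENCODE transcript, the newer quasi-likelihood method, the dispersion trend held for fits without libraries, and single libraries left out of comparisons over several groups were added after seeing the data.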

Additional observations from a re-analysis of the deposited data

Results flagged for a closer look

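In 13 of 210 groups of 4 libraries, over 13 members and 1 summary level, a single library stood far from the other 3, as chance gives in about 1 in 20. The geometric mean of the 43 members in GFP-high cells of the proximal colon was 78.06 CPM in number 3, against 64.49 to 64.63 CPM in the others. Rrn3 read 65.11 CPM in GFP-high number 3 of the distal colon, against 54.55 to 54.81 CPM. Of the rest, 6 were number 4 of a GFP-negative group, the libraries with the shifted GC profile. In the middle small intestine these were Ubtf at 108.2 CPM (others 154.2 to 162.1), Nop58 at 107.1 CPM (others 73.46 to 78.05), Gar1 at 13.37 CPM (others 31.54 to 34.73), Utp20 at 53.62 CPM (others 42.58 to 43.85) and Tsr1 at 37.85 CPM (others 31.80 to 32.73), and in the distal colon Ubtf at 121.0 CPM (others 181.1 to 190.9). Number 1 stood apart in 3 GFP-intermediate groups: Rrp9 at 40.65 CPM in the middle small intestine (others 44.70 to 45.20), Rrp1b at 29.11 CPM in the proximal colon (others 38.06 to 39.49) and Utp20 at 81.74 CPM in the distal small intestine (others 132.0 to 139.8). In GFP-negative cells, Ncl read 463.1 CPM in number 2 of the middle small intestine (others 484.6 to 489.0) and Rrp1b 30.47 CPM in number 3 of the proximal colon (others 18.44 to 20.47).

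The difference between GFP-high and GFP-negative cells itself differed between the organs for 40 members by the interaction test of edgeR. Those looked at singly were Utp20 (-1.51), Gar1 (-1.15), Rrs1 (-1.07), Nop16 (-1.04), Tsr1 (-0.99), Polr1b (-0.99), Gnl3 (-0.94), Ncl (-0.81) and Rrn3 (-0.24), each a log2 difference of the colon minus the small intestine.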

How the results depend on the processing

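Of 14 counts of called members, those of GFP-high against GFP-negative cells in the small intestine, of GFP-intermediate against GFP-negative cells and of the tests between organs stayed within 1.5 times under each alternative that kept the threshold on p, but for the GFP-negative organ comparison, where scaling by total counts alone gave 32. No call of a named member changed sign. Required to be at least a 2-fold change, the counts fell to 1 and 2 in the proximal and distal colon (GFP-high against GFP-negative), 0 for GFP-high against GFP-intermediate in either organ, 0 for GFP-intermediate against GFP-negative in the colon, 1 each for colon against small intestine in GFP-high cells and in GFP-negative cells, 0 for distal against proximal small intestine and 4 for the interaction. The GC offset gave 5 and 2 for GFP-high against GFP-intermediate in the small intestine and colon, and 0 for distal against proximal small intestine. For the last, no filter gave 1, only the groups compared 17 and DESeq2's Wald test 8. The replicate block changed 5 counts: from 30 to 31 in the distal colon (GFP-high against GFP-negative), from 20 to 21 for the organs in GFP-negative cells, from 40 to 41 for the interaction, from 0 to 1 for distal against proximal colon and from 4 to 7 for distal against proximal small intestine. Of 364 results of named members it changed the call of 5, all given beside the comparisons above, and no other. Without 1 library or 1 number the counts ran from 39 to 42, 36 to 39, 38 to 41, 18 to 31 and 26 to 32 in the 5 parts, 4 to 18 and 0 to 16 for GFP-high against GFP-intermediate in the small intestine and colon, 43 to 43 and 27 to 33 for GFP-intermediate against GFP-negative, 36 to 39 and 16 to 23 for colon against small intestine in GFP-high and GFP-negative cells, 0 to 1 and 0 to 6 for distal against proximal colon and small intestine, and 34 to 41 for the interaction. Without number 4, the counts not given with their comparison were 43 and 30 for GFP-intermediate against GFP-negative cells, 38 and 20 for the organs in GFP-high and GFP-negative cells and 0 for distal against proximal colon. Total counts alone moved the median of all genes by 0.26, 0.24 and 0.15 in the small intestinal parts. The causes of these changes were not tested.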

Other observations

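Of the 113 other ribosome biogenesis factors that were tested, counts in further comparisons are given with the share of all genes in brackets. Between GFP-intermediate and GFP-negative cells 104 were higher (29.3%) and 2 lower (30.5%) in the small intestine, and 67 (10.8%) and 1 (12.2%) in the colon. Between GFP-high and GFP-intermediate cells 19 were higher (10.4%) and 18 lower (13.4%) in the small intestine, and 20 (4.83%) and 4 (7.2%) in the colon. Of genes at least as abundant as Rrp9, 16.5% were higher and 29.2% lower there in the small intestine. In GFP-high cells 84 were lower (21.3%) and 3 higher (20.9%) in the colon than in the small intestine. In GFP-negative cells 10 were lower (22.4%) and 30 higher (28.1%), a share of higher factors near that of all genes. Naf1 was higher in the distal than in the proximal colon in GFP-high cells by 1.54 ± 0.18, a comparison in which 0 of the 43 members passed.

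In the difference of GFP-high from GFP-negative cells, the 43 members' Spearman rank correlation with transcript GC content was -0.16 in the proximal small intestine, -0.52 and -0.53 in the middle and distal small intestine and -0.46 and -0.52 in the proximal and distal colon, given as a description across genes. The GFP-high libraries of the proximal small intestine had log2 differences of -0.05 to 0.08 between the GC-richest and GC-poorest genes, and the other GFP-high libraries ranged from -0.82 to 0.10.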
